A study of Mus musculus with 96 samples.

Results

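The 9 genes described here encode enzymes that set the pace and the end product of glycolysis in mouse tissues. They are the pyruvate kinases Pkm and Pklr, the hexokinases Hk1, Hk2 and Hk3, the phosphofructokinases Pfkl and Pfkp, the phosphofructokinase regulator Pfkfb3 and the lactate dehydrogenase subunit Ldha. They were found by gene symbol through the GENCODE M21 annotation and make up 9 of the 54833 features in the read count table, and all 9 passed the filter on low counts in each of the 4 tissues. They were chosen by symbol with their measured levels by sleep deprivation, time of day and tissue already known, so those levels are given as a description, with standard errors and without p-values for the 9 genes.

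Male wild-type C57BL/6 mice, 6 to 8 weeks old, were either kept awake for 10 h of their rest period by a drum that turned slowly and held food and water (SD) or left undisturbed (CON). Forebrain, cerebellum, liver and kidney were then collected in both arms at circadian times CT4, CT8, CT12, CT16, CT20 and CT24, as the sample titles give them. Per the study, the mice were housed in a light/dark cycle and the tissues were taken in constant darkness. In forebrain, cerebellum and liver a second time label of the same samples runs from DD0 to DD20, each 4 h less than the title. Total RNA was depleted of ribosomal RNA and sequenced with strand information, with 2 libraries in each of the 48 groups and 96 libraries in all. No gene was altered and no drug was given in either arm, and whole tissues were used, so fewer cells of a type and less RNA per cell cannot be told apart in any result below. The study describes the 2 libraries of a group as biological replicates. Standard errors and p-values at single times and between tissues rest on the spread between such libraries, pooled over groups. For comparisons averaged over time, the spread also includes differences of the SD effect between times. In fits of a 24 h cosine it also includes departures from the cosine, and the JTK_CYCLE rhythm test uses ranks.

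Depth ran from 24.8 to 58.5 M counts per library. The tissue labels matched their defining markers: 7 hepatocyte genes summed to between 86195 and 113024 CPM (counts per M counts of the library) in liver and at most 1737 in kidney, and 7 tubule genes summed to between 15760 and 19333 CPM in kidney and at most 7.02 in liver. In kidney, the titles of 20 of the 24 libraries disagree with their other labels on condition or time, and the groups follow the titles. Each kidney value by condition or time below therefore rests on the titles being right, which was not tested. In the cerebellum, CON replicate 1 at CT8 stood apart from the other 23 libraries in its antisense reads, which is taken up with the cerebellum below. The macrophage marker Cd68 had no count in liver or kidney, so it is no guide to macrophages in this table, and the lower glycolysis genes Gapdh and Tpi1, which have many near-identical pseudogene copies, were counted too thinly to read.

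Glycolysis turns glucose into pyruvate. Hexokinases trap glucose in the cell by phosphorylating it, phosphofructokinase commits the sugar to breakdown, Pfkfb3 makes the small sugar phosphate that most strongly activates phosphofructokinase, pyruvate kinase carries out the last step, and lactate dehydrogenase exchanges pyruvate and lactate. Hepatocytes, which make as well as burn glucose, use isozymes of their own, among them the liver and red cell pyruvate kinase Pklr. Most other cells use Hk1 and Pkm, Hk3 is best known from myeloid blood cells, and Hk2 is the insulin-responsive hexokinase of muscle and fat. Pkm is spliced into an M1 and an M2 form, which the gene counts analysed here cannot separate, nor can they separate the liver and red cell forms of Pklr.

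Upstream sequences are shown for 4 of the genes, Hk2 and Pfkp because they were lower in SD liver and hold the most GC boxes, and Pfkfb3 and Ldha because they alone hold the CACGTG E-box, the core motif bound by the clock factors CLOCK and BMAL1. Each is the stretch before an annotated RefSeq start site in GRCm38.p6, 5′ to 3′ on the gene's strand, cut where it would run into an annotated exon. Capitals mark CACGTG and the GC box GGGCGG or its reverse complement CCGCCC.
Hk2, chr6:82774455-82774704, minus strand: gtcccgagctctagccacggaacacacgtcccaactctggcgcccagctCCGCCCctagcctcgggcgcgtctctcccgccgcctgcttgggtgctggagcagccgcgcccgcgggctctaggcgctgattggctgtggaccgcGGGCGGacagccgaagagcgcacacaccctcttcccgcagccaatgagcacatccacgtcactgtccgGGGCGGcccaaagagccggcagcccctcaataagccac
Pfkp, chr13:6648778-6649021, minus strand: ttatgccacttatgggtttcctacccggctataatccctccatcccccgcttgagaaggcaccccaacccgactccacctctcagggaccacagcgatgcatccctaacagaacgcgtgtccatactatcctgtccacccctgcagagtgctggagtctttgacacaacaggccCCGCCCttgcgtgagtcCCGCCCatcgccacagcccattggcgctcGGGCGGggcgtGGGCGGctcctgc
Pfkfb3, second start site, chr2:11502102-11502340, minus strand: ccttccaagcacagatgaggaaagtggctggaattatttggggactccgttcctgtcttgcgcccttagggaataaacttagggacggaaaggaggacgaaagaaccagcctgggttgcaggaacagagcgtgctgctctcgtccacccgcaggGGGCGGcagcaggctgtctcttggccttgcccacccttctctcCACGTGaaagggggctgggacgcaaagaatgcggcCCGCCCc
Ldha, first start site, chr7:46845554-46845803, plus strand: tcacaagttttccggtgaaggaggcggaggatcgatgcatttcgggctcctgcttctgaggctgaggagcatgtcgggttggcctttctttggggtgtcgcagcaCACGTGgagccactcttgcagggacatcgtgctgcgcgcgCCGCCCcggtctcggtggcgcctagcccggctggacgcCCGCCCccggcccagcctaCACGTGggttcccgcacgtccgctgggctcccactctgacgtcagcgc
The 9 genes have 14 start sites in the RefSeq table. Among the 250 bases before each of them, CACGTG lay in 2 (1 copy for Pfkfb3, beginning 53 bases before the start, and 2 copies for Ldha), against 6.02% of 32851 windows of the same length over all genes. GGGCGG on either strand lay in 6 of the 14, with 3 copies for Hk2 and 4 for Pfkp, against 32.7% of all windows. TATAAA on either strand lay in 1, the second start site of Pklr, 31 bases before the start, against 12.4% of all windows. The E-box palindrome reads the same on both strands and contains the shorter ACGTG, which 16.6% of all windows held. A match in these letters is no evidence of binding.

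The 2 genes of pyruvate kinase, the last step, ran in different orders across the tissues. In the counts, Pkm (ENSMUSG00000032294, chr9:59656368-59679375, GRCm38, plus strand) fell in the order forebrain, cerebellum, kidney and liver, with a mean of 696 ± 46.2 CPM in CON forebrain, 520.0 ± 60.9 in cerebellum, 253 ± 43.6 in kidney and 49.0 ± 6.85 in liver (SD, n = 12 each). No neighbours in that order overlapped among the CON libraries. The closest gap was between the lowest cerebellum library, at 355 CPM, which was the library that stands apart, and the highest kidney library, at 353 CPM. Pklr (ENSMUSG00000041237, chr3:89136142-89146784, plus strand) ran in another order, at 412 ± 102 CPM in CON liver, 44.8 ± 4.07 in kidney, 1.31 ± 0.58 in forebrain and 0.605 ± 0.283 in cerebellum. The 2 brain regions overlapped in Pklr, and 5 to 79 reads per CON library lay behind those 2 values. Pklr overlaps the ion channel gene Hcn3 on the opposite strand, which reached at most 53.9 CPM in any library.

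To set genes side by side, CPM was divided by the length of all annotated exons of a gene. That length can exceed the transcript made in a tissue, by a different amount for each gene, so shares between genes are approximate. Per kilobase of exon, Pkm made up 99.7% ± 0.12 of the pyruvate kinase signal in CON forebrain, 99.8% ± 0.090 in cerebellum and 78.1% ± 3.83 in kidney. In CON liver it made up 7.63% ± 3.01 (SD, n = 12 each). In SD liver its share was 4.85% ± 1.69. The shares ran from 5.25% to 16.5% in CON and from 2.49% to 7.39% in SD, so the groups overlapped.

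**Figure D1:**
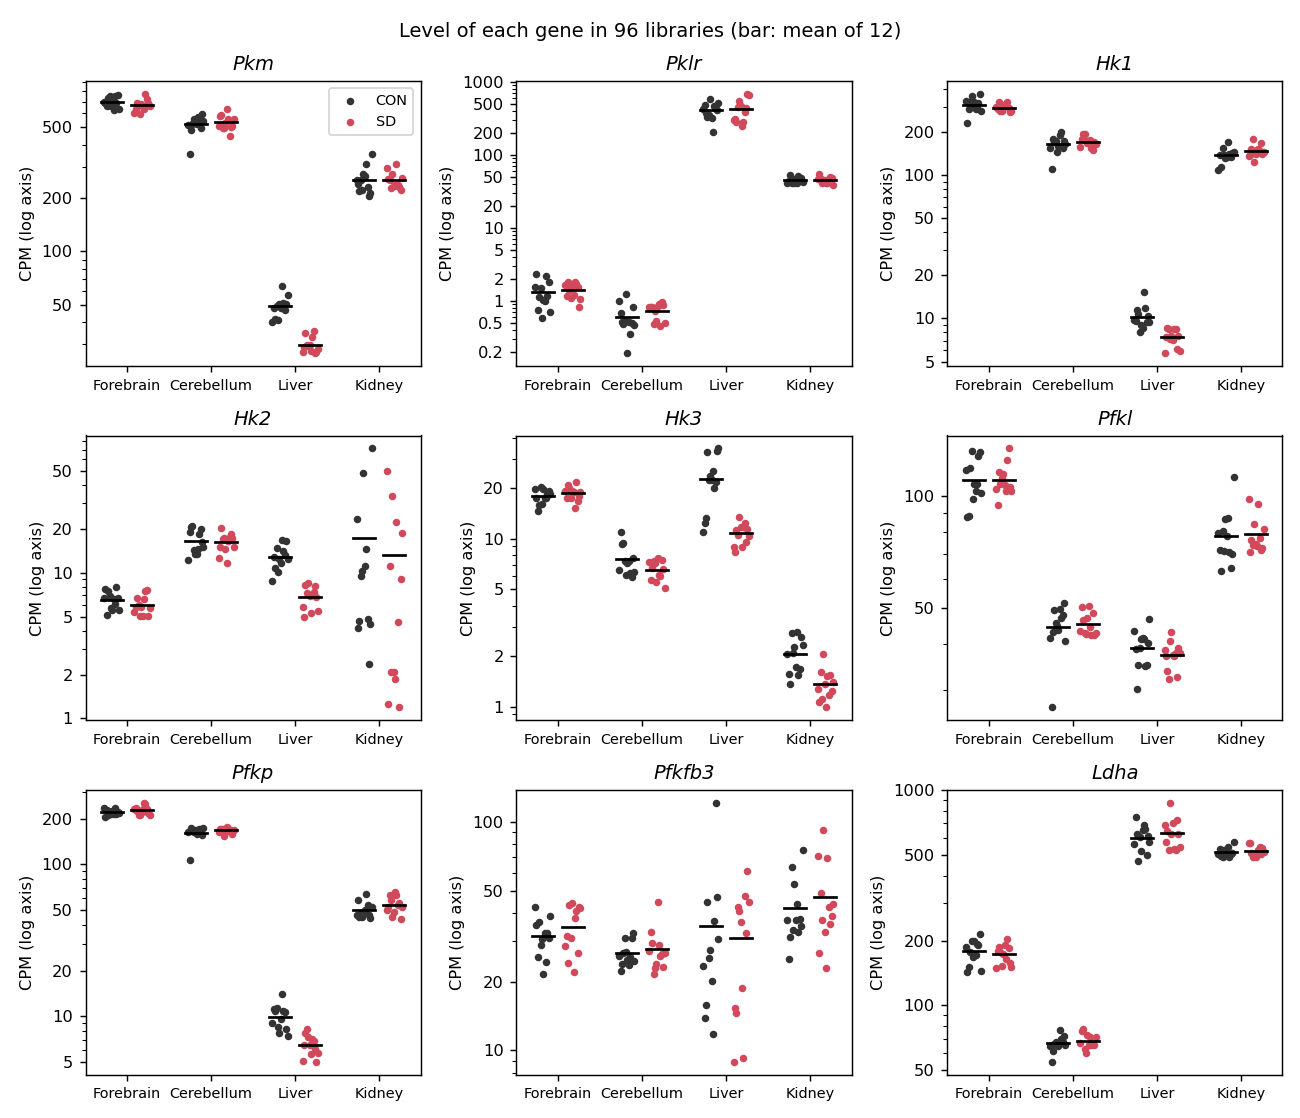
Level of each of the 9 genes in 96 libraries, in CPM on a log axis, by tissue, with CON in dark grey and SD in red; each point is a library and each bar the mean of 12. Pkm and Pklr run in different orders across the tissues, and within liver all 12 SD points of Pkm and of Hk2 lie below all 12 CON points.

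The hexokinases Hk1, Hk2 and Hk3 of the first step each followed an order of their own. Hk1 (ENSMUSG00000037012, chr10:62268855-62379908, minus strand), the ubiquitous mitochondria-bound form, averaged 309.9 ± 35.9 CPM in CON forebrain, 164 ± 23.2 in cerebellum, 137 ± 16.1 in kidney and 10.3 ± 1.89 in liver (SD, n = 12), with cerebellum and kidney overlapping. Per kilobase it held 85.8% ± 1.58 of the summed signal of Hk1, Hk2 and Hk3 in CON forebrain, 79.8% ± 4.41 in cerebellum and 84.2% ± 12.4 in kidney, but 13.4% ± 4.03 in liver. These shares are of the 3 genes alone, not of all hexokinase in the tissue. In CON liver Hk3 held 63.3% ± 7.73 and Hk2 23.3% ± 4.13 of the same sum.

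Hk2 (ENSMUSG00000000628, chr6:82725025-82774454, minus strand) averaged 16.5 ± 3.14 CPM in CON cerebellum, 12.9 ± 2.46 in liver and 6.53 ± 0.93 in forebrain. In kidney it averaged 17.4 ± 21.2 CPM, a spread wider than its mean, and overlapped all 3 other tissues. Hk3 (ENSMUSG00000025877, chr13:55005985-55021385, minus strand) averaged 22.7 ± 7.98 CPM in CON liver, 17.9 ± 1.78 in forebrain, 7.53 ± 1.57 in cerebellum and 2.06 ± 0.49 in kidney, with liver and forebrain overlapping. Hk3 overlaps the neuronal guidance receptor gene Unc5a on the opposite strand, which reached 138 CPM in forebrain and 6.47 CPM in liver. Reads of the pair are told apart by strand alone, so the brain level of Hk3 is less certain than the others.

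Of the phosphofructokinases, Pfkl (ENSMUSG00000020277, chr10:77986947-78010083, minus strand), the liver-type subunit, was not highest in liver: it averaged 111 ± 15.5 CPM in CON forebrain, 78.0 ± 13.5 in kidney, 44.3 ± 6.42 in cerebellum and 38.9 ± 4.49 in liver. Forebrain overlapped kidney and cerebellum overlapped liver. Pfkp (ENSMUSG00000021196, chr13:6579768-6648777, minus strand), the platelet-type subunit, averaged 219.9 ± 9.04 CPM in forebrain, 161 ± 18.1 in cerebellum, 50.2 ± 6.15 in kidney and 9.97 ± 1.88 in liver, with no overlap between neighbours. Per kilobase, the muscle-type partner Pfkm held the largest mean share in each tissue, at 71.1% ± 1.68 in CON forebrain, 81.6% ± 0.68 in cerebellum, 53.5% ± 4.22 in kidney and 49.8% ± 4.06 in liver. Pfkl came closest to it in liver, at 44.5% ± 4.49. These shares depend on the exon lengths used, 13401 bases for Pfkp and 6675 for Pfkl, and the lengths of the transcripts present were not measured. Pfkfb3 (ENSMUSG00000026773, chr2:11471433-11554077, minus strand) had overlapping ranges in all 4 tissues, with CON means between 26.6 CPM in cerebellum and 42.1 CPM in kidney.

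Ldha (ENSMUSG00000063229, chr7:46841475-46855627, plus strand), whose subunit favours lactate production, averaged 601 ± 81.0 CPM in CON liver, 517 ± 24.2 in kidney, 178 ± 23.1 in forebrain and 66.6 ± 5.42 in cerebellum, and only liver and kidney overlapped. Beside its partner Ldhb, it held 99.3% ± 0.18 of the lactate dehydrogenase signal per kilobase in CON liver, 29.4% ± 4.25 in forebrain, 24.3% ± 1.02 in kidney and 16.5% ± 1.30 in cerebellum. Liver and kidney thus had overlapping Ldha levels but different shares, since Ldhb averaged 763 CPM in CON kidney and 1.84 CPM in CON liver.

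**Figure D2:**
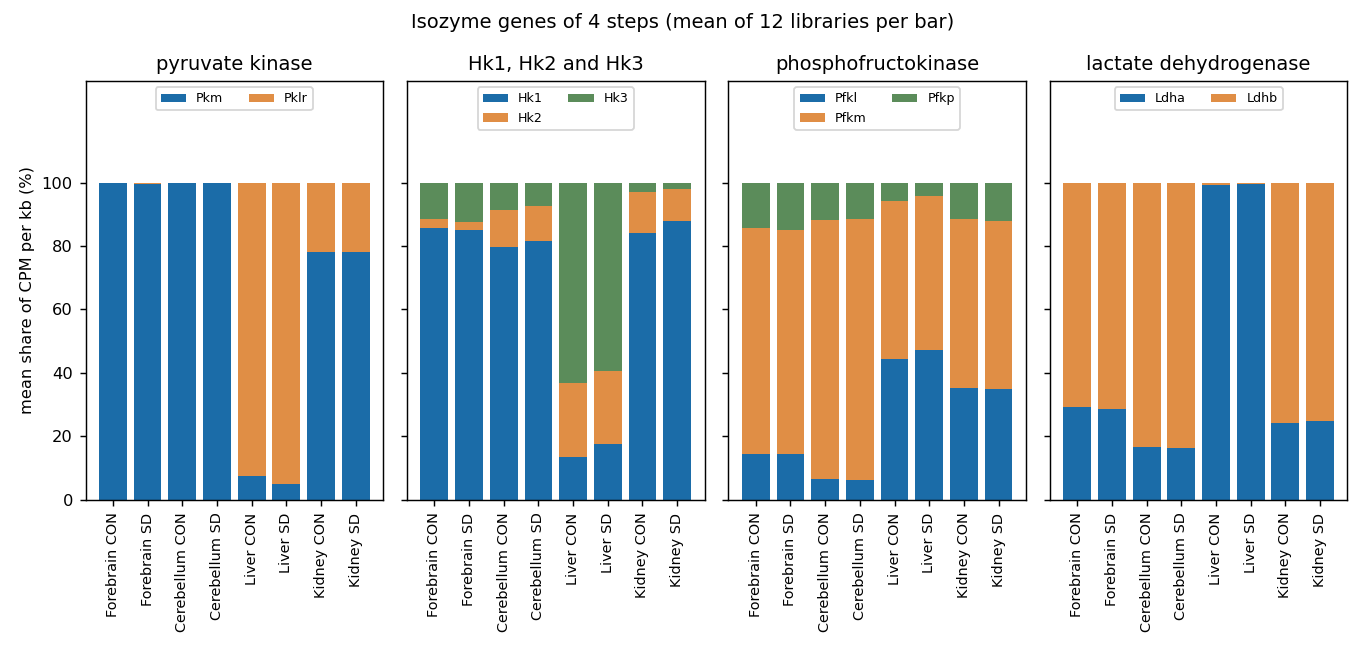
Mean share of each isozyme gene in the CPM per kilobase of exon of its step, in percent, for pyruvate kinase, the hexokinases Hk1, Hk2 and Hk3, phosphofructokinase and lactate dehydrogenase in each tissue and condition; each bar is the mean of 12 libraries. In liver Pklr and Ldha make up most of their steps and Hk3 most of the 3 hexokinases shown, and in both brain regions Pkm and Hk1 make up most of theirs.

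Between tissues in CON, on the scale of edgeR's TMM factors, Pkm was lower in liver than in kidney by a log2 difference of -1.85 (SE 0.07), Hk1 by -3.23 (SE 0.09) and Pfkp by -1.84 (SE 0.06). Pklr was higher in liver by 3.70 (SE 0.14) and Hk3 by 3.95 (SE 0.15). Of the 9 genes, 8 were past an adjusted p of 0.05 in liver against kidney, where 68.7% of 26536 genes were. The figures were 9 in forebrain against cerebellum, beside 70.8% of genes, and 8 in both brain regions against liver and kidney, beside 84.2%. With library sizes in place of TMM factors, the median of all genes moved from -0.09 to -0.56 in liver against kidney and from 0.22 to 0.60 in brain against the other tissues, and Pfkfb3 in liver against kidney (0.04 to -0.47) and Pfkl in brain (-0.05 to 0.35) changed sign. Hk2 and Ldha were higher in liver than in kidney by 0.71 (SE 0.17) and 0.72 (SE 0.06), and by 0.19 and 0.21 with library sizes. The CON mean of Hk2 ran the other way, at 12.9 CPM in liver and 17.4 in kidney, but its median was 12.6 and 9.89.

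In liver, 5 of the 9 genes were lower after sleep deprivation. Pkm, Hk1, Hk2, Hk3 and Pfkp, had log2 differences between -0.91 and -0.35 averaged over the 6 times. Pklr, Pfkl, Pfkfb3 and Ldha were not past the threshold. The 5 of 9 called lower stand beside a background in which 8.8% of 19708 tested genes were called lower and 9.42% higher (18.2% in all, edgeR's quasi-likelihood test, Benjamini-Hochberg adjusted p under 0.05), and nothing is read from that count because this contrast helped to choose the genes. The median log2 difference was -0.35 over the 9 genes and 0.01 over all genes tested.

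Pkm ran from 39.7 to 64.1 CPM in the 12 CON livers (median 48.6) and from 26.7 to 35.7 CPM in the 12 SD livers (median 29.1). The groups did not overlap, and 932 to 2468 reads lay behind each value. With TMM factors its log2 difference was -0.58 (SE 0.07), a fall of 33.2%. With library sizes, the scale of the CPM values, it was -0.72. At CT4 the CON libraries stood at 39.7 and 48.1 CPM and the SD libraries at 27.1 and 27.3, at CT8 at 48.1 and 64.1 against 28.9 and 32.8, and at CT12 at 41.5 and 51.5 against 34.6 and 35.7. At CT16 the values were 49.1 and 46.6 against 29.5 and 26.7 CPM, at CT20 40.9 and 50.6 against 29.3 and 27.1, and at CT24 50.5 and 56.9 against 29.8 and 28.2. Both SD libraries thus lay below both CON libraries at each of the 6 times, and the narrowest gap was at CT12.

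Hk2 ran from 8.75 to 16.8 CPM in CON (median 12.6) and from 4.97 to 8.56 CPM in SD (median 6.97), again without overlap. Its log2 difference was -0.78 (SE 0.10). The CON and SD means were 14.8 and 6.01 CPM at CT8, where they lay furthest apart, and 12.4 and 7.82 at CT12. Hk2 and Pkm were the 2 genes of the 9 in which all 12 SD libraries lay below all 12 CON libraries, a pattern found in 0.335% of the genes tested. The reverse pattern was found in 0% of them.

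Hk3 had the largest difference among the 5 genes called lower, -0.91 (SE 0.14), and ran from 10.9 to 34.5 CPM in CON (median 22.2) and from 8.36 to 13.5 CPM in SD (median 10.9). The overlap came from 3 CON libraries, the first replicates at CT4, CT8 and CT12, at 10.9, 12.5 and 13.3 CPM. Hk1 ran from 8.03 to 15.2 CPM in CON and from 5.74 to 8.53 in SD, with a log2 difference of -0.35 (SE 0.07). Pfkp ran from 7.40 to 13.9 CPM in CON and from 5.03 to 8.27 in SD, with a log2 difference of -0.47 (SE 0.07). Below the lowest CON library lay 6 of the 12 SD libraries for Hk3, 8 for Hk1 and 10 for Pfkp. The shares of all genes with such counts are not given, so nothing is read from these 3 counts. For all 5 genes both SD libraries lay below both CON libraries at 6 of 6 times, which 3.12% of the genes tested did. The reverse held for 0.0812%. Such overlaps are counted in CPM by library total, without TMM factors. On that scale the median log2 difference of all liver genes was -0.13, so these counts depend on the scaling.

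The other 4 genes had overlapping ranges in CON and SD liver. Pklr ran from 209 to 589 CPM in CON and from 248 to 685 in SD (log2 difference 0.12, SE 0.13). For Pfkl the difference was 0.08 (SE 0.05), with 30.2 to 46.8 CPM in CON and 32.1 to 43.0 in SD. Pfkfb3 differed by 0.03 (SE 0.23), with 11.8 to 121 CPM in CON and 8.91 to 60.7 in SD. Ldha ran from 469 to 746 CPM in CON and from 529 to 872 in SD, with a log2 difference of 0.22 (SE 0.09). These 4 values depend on the scaling: with library sizes in place of TMM factors, the median of all liver genes moved from 0.01 to -0.13 and the split of all calls from 1857 higher and 1735 lower to 358 and 3766. Pklr then stood at -0.02, Pfkl at -0.06, Pfkfb3 at -0.10 and Ldha at 0.08. The 5 genes that were lower stayed called and lower on that scale, at -0.72 for Pkm, -0.48 for Hk1, -0.92 for Hk2, -1.05 for Hk3 and -0.61 for Pfkp.

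**Figure D3:**
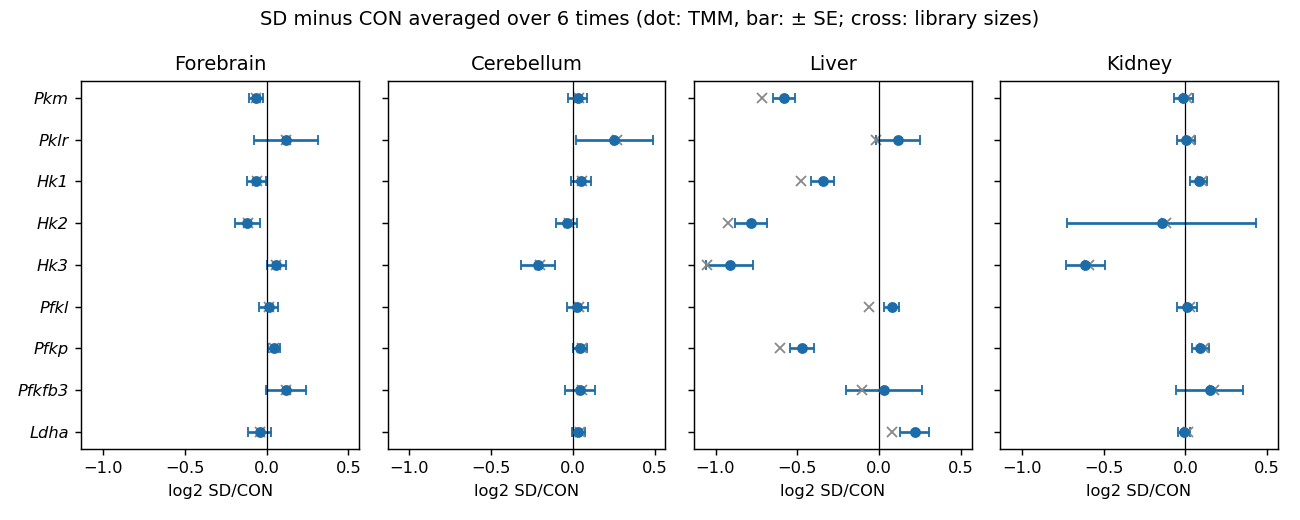
Log2 difference SD minus CON averaged over 6 times, for each of the 9 genes in each tissue; dots are estimates with TMM factors, bars are ± SE and grey crosses are estimates with library sizes. In liver Pkm, Hk1, Hk2, Hk3 and Pfkp lie left of 0 on both scales, and kidney Hk2 has the widest error, 0.58.

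Most markers of leukocytes and of proliferation were lower in SD liver, as were the 5 genes. The 8 macrophage markers summed to between 942 and 1895 CPM in CON (median 1320) and between 663 and 1096 CPM in SD (median 947), and 6 of the 7 tested were called lower. The 6 lymphocyte markers summed to 71.9 to 138 CPM in CON and 34.3 to 66.5 in SD, without overlap, and 5 of 6 were called lower. Of the other lists, 3 of 4 tested neutrophil markers (CON median 13.4 CPM, SD median 8.05) and 5 of 5 proliferation markers (70.7 and 30.7 CPM) were called lower. Among structural cells, 1 of 6 endothelial markers was called lower, 2 of 6 stromal markers were called higher and 0 of 4 cholangiocyte markers was called in either direction. Hepatocyte markers had 5 of 7 called higher, with medians of 93952 CPM in CON and 104965 in SD. The part of these cells in the level of Pkm, Hk1, Hk2, Hk3 and Pfkp was not tested.

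The genes whose levels ran most like Pkm over the 24 livers were Cd52 and Cd48, both leukocyte surface proteins, Vasp, an actin regulator, G6pdx, the entry enzyme of the pentose phosphate pathway, and Acod1, the itaconate-making enzyme of activated macrophages. Pearson's r of log2 CPM was 0.92 for the first 4 and 0.91 for Acod1. Cd52 averaged 7.12 CPM in CON and 3.71 in SD, and G6pdx 17.4 and 10.9. The same ranking for Pklr gave Hcn3 (r 0.94), which overlaps it on the opposite strand and may share its reads, then the fructose pathway kinase Tkfc (0.92), the glycolytic isomerase Gpi1 (0.85), the fatty acid elongase Elovl6 (0.84) and Rdh13 (0.82). These correlations describe the same 24 libraries, which share conditions, times and depth.

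Other genes of the pathway were taken from a list of 48 transporters, enzymes and regulators outside the 9. In liver 44 passed the filter, and 5 were called higher and 4 lower, or 9 of 44 beside 18.2% of all genes. The median log2 difference was 0.04 over those 44 and 0.01 over all genes. Among the glucose and lactate transporters, Slc2a2, the hepatocyte glucose carrier, rose by 0.39 (SE 0.09, adjusted p = 0.00306 by edgeR), and by 0.25 with library sizes (adjusted p = 0.0287). Slc2a3, the high-affinity carrier of neurons and leukocytes, fell by 0.63 (SE 0.12, adjusted p = 0.000826). Slc16a3, the lactate exporter of glycolytic cells, fell by 0.64 (SE 0.15, adjusted p = 0.00472), and the other 4 of the 7 transporters tested were not called.

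At the phosphofructokinase step Pfkfb4, a relative of Pfkfb3, fell by 0.66 (SE 0.12, adjusted p = 0.000376), and the other 4 of 5 were not called. Of the 12 tested genes of the lower pathway 2 were called higher and 0 lower. Pdk2, a kinase that switches off pyruvate dehydrogenase, rose by 0.24 (SE 0.08, adjusted p = 0.0344) and was 1 of 2 called higher, beside 1 called lower, among 9 tested genes of pyruvate use. The other gene called higher was Pdha1, a subunit of pyruvate dehydrogenase named after its value was seen, at 0.24 (SE 0.05, adjusted p = 0.00221). Both calls were lost with library sizes, on Pdk2 at 0.10 (adjusted p = 0.323) and on Pdha1 at 0.10 (adjusted p = 0.0645). On that scale 1 of the 44 pathway genes tested in liver, Slc2a2, was called higher and 8 were called lower, and all genes split into 358 higher and 3766 lower. With TMM factors, the 3 tested genes of the hexokinase step, the 4 regulators tested and the 4 splicing factors that choose between the Pkm forms had no call. With library sizes, the splicing factor Hnrnpa2b1 (-0.18, adjusted p = 0.0173 by edgeR) and Pfkm (-0.17, adjusted p = 0.0225) were among the 8 called lower. Both are named here after their values were seen.

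In kidney, with SD and CON taken from the titles, 1 of the 9 genes was called, Hk3, where 2.3% of 21528 genes were called and 2.12% were called lower. Hk3 ran from 1.36 to 2.79 CPM in CON (median 2.07) and from 0.991 to 2.07 CPM in SD (median 1.32), on 33 to 127 reads per library. The ranges overlapped, and both SD libraries lay below both CON libraries at 5 of 6 times. Of all genes tested 0.334% did so at 6 of 6 times. The share at 5 of 6 is not given, so nothing is read from that count. Its log2 difference was -0.61 (SE 0.12). Beside it, the macrophage markers summed to 123 to 194 CPM in CON and 101 to 135 in SD, with 3 of 4 tested called lower, and the lymphocyte markers to 33.6 to 60.3 and 24.9 to 37.7, with 2 of 6 called lower. Their part in the Hk3 value was not tested. Whether the liver and kidney differences of Hk3 differ from each other was not tested. For the other 8 genes the kidney log2 differences lay between -0.14 and 0.15. Of the 43 tested pathway genes 0 were called by edgeR or DESeq2. In edgeR 3 of them were at an unadjusted p under 0.05, beside 2812 of 21528 genes.

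The SE of kidney Hk2 was 0.58, the widest of the 9 genes in any tissue, because its libraries ranged from 1.19 to 71.2 CPM, a 59.8-fold span within 24 kidneys. Replicates of 1 group stood as far apart as 50.1 and 1.86 CPM (SD at CT4, 26.9-fold) and 1.25 and 22.3 CPM (SD at CT8, 17.9-fold). By comparison, the median ratio between replicates over the 9 genes was 1.13 in kidney. The high and low libraries occurred in both conditions: the highest were CON at CT24 (71.2 and 48.5 CPM), and the lowest were SD at CT16 (1.19 and 2.07 CPM).

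Fat cell markers moved with Hk2 across the kidneys. A list of 6 adipocyte genes (Adipoq, Plin1, Lep, Fabp4, Cidec and Pparg), chosen after the Hk2 values were seen, summed to between 27.9 and 600.5 CPM, and the 6 libraries highest in Hk2 were the 6 highest in that sum. Pearson's r between the log2 values was 0.95 and Spearman's rho 0.94 over 24 libraries. It was 0.93 within CON, 0.96 within SD and 0.95 without the 2 libraries farthest from the median marker sum. The brown fat genes Ucp1, Cidea and Otop1 summed to between 0.0263 and 120.0 CPM, with an r of 0.89. For the other members r with the adipocyte sum was 0.81 for Pfkfb3, 0.74 for Pfkl, 0.69 for Pkm, 0.46 for Hk3, 0.27 for Ldha, -0.13 for Pfkp, -0.28 for Hk1 and -0.44 for Pklr. The libraries share depth and dissection, and the part of fat tissue in these levels was not tested. In liver the same 6 genes summed to between 7.80 and 22.5 CPM, with Lep at 0 counts.

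**Figure D4:**
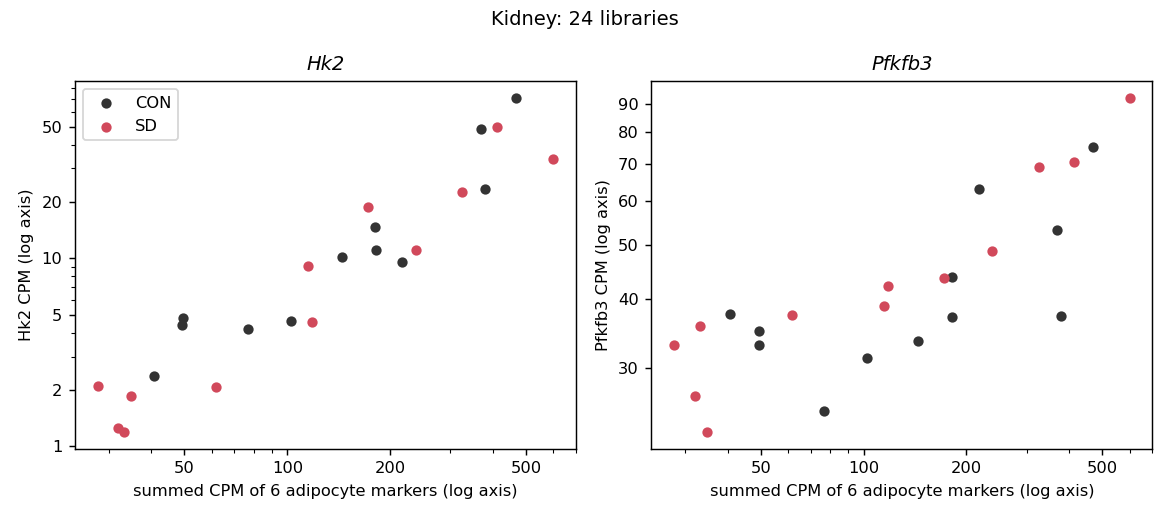
Hk2 (left) and Pfkfb3 (right) against the summed level of 6 adipocyte markers in 24 kidney libraries, in CPM on log axes, with CON in dark grey and SD in red. Hk2 spans 1.19 to 71.2 CPM and rises with the marker sum in both conditions (r 0.95), and Pfkfb3 spans 23.0 to 92.3 CPM (r 0.81).

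In the brain none of the 9 genes was called in the average over time. In forebrain 0.0303% of 23078 genes were called, and the log2 differences of the 9 ran from -0.12 (Hk2, SE 0.08) to 0.12 (Pklr, SE 0.20), with Pkm at -0.06 (SE 0.04) and Hk1 at -0.06 (SE 0.06). In cerebellum 0% of 22218 genes were called (757 at an unadjusted p under 0.05, and 1 called by DESeq2), and the 9 ran from -0.21 (Hk3, SE 0.10) to 0.25 (Pklr, SE 0.24). At an unadjusted p under 0.05, 0 of the 9 passed in either region, and DESeq2 called 0. A 1-SE interval around Pkm reached from -0.11 to -0.02 in forebrain and from -0.03 to 0.09 in cerebellum. None of the 42 pathway genes tested in each brain region was called in the average over time by edgeR or DESeq2. At an unadjusted p under 0.05 in edgeR were 0 in forebrain, beside 1479 of 23078 genes, and 4 in cerebellum, beside 757 of 22218. At single times, Pdha1, a subunit of pyruvate dehydrogenase named here after its value was seen, was lower in SD forebrain at CT20 by a log2 difference of -0.36 (SE 0.08, adjusted p = 0.0418). The only other calls at single times in these 48 genes were Pfkfb2 and Pfkfb1 at CT8 in cerebellum (adjusted p = 0.0305 and 0.0365), a comparison that includes the library described next.

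The cerebellum CON library that stands apart, replicate 1 at CT8, was lowest of 24 in 5 of the 9 genes and highest in Hk3. Its Pkm level was 355 CPM, against 448 to 633 in the other 23, and its antisense gene Hk1os, which overlaps Hk1, stood at 51.3 CPM against 13.7 to 20.3. In that comparison at CT8, 10.3% of all genes were called between SD and CON. Without this library the cerebellum value of Hk3 went from -0.21 to -0.14 and that of Pkm from 0.03 to -0.01, and none of the 9 was called. At CT8 itself, Pkm went from 0.24 (SE 0.14) to -0.01 (SE 0.13) and Hk3 from -0.72 (SE 0.24) to -0.33 (SE 0.23).

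Time of day was followed through 6 means of 2 libraries. All SD mice were deprived in the same clock window, so in SD the time of collection and the time since deprivation rise together. The 2 cannot be told apart in any SD value or in any difference between SD and CON. In liver Pfkfb3 had the widest swing of the 9. Its CON mean was lowest at CT8 (12.8 CPM, libraries at 13.8 and 11.8) and highest at CT16 (82.9 CPM, libraries at 44.8 and 121), a 6.46-fold span in which the peak rests on 1 of the 2 libraries for much of its height. In SD liver it was lowest at CT8 (12.3 CPM) and highest at CT20 (50.7 CPM, libraries at 40.7 and 60.7), a 4.13-fold span.

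Pklr in SD liver was lowest at CT4 (273 CPM, libraries at 298 and 248) and highest at CT20 (615 CPM, libraries at 546 and 685), and no library of CT20 or CT24 was as low as any library of CT4, CT8 or CT12. In CON liver the mean was highest at CT24 (556 CPM) and lowest at CT8 (349 CPM), where the replicates stood at 488 and 209 CPM. Pfkl in CON liver ran from 32.5 CPM at CT12 to 44.0 at CT24, and Pfkp from 7.60 CPM at CT24 to 12.5 at CT8. Pkm changed little with time, with a 1.28-fold span in CON and 1.29-fold in SD. In kidney the highest Hk2 mean in CON, at CT24 (59.9 CPM, 12.6 times the lowest), fell in 2 libraries that also ranked 2 and 5 of 24 in the adipocyte sum.

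**Figure D5:**
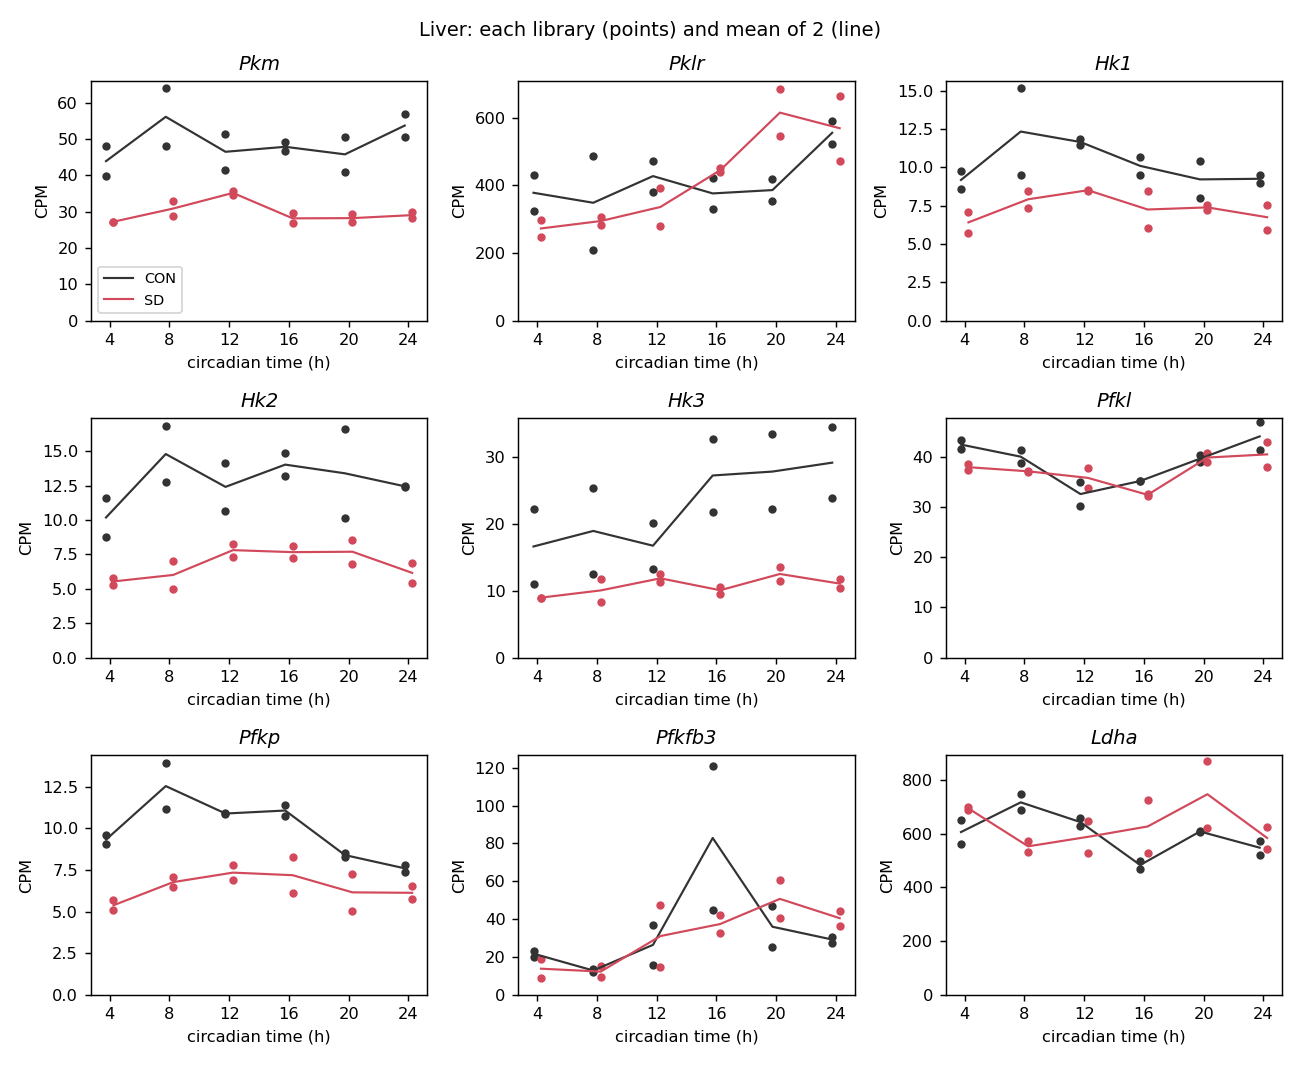
Level of each of the 9 genes in liver by circadian time, in CPM from 0, with CON in dark grey and SD in red; points are libraries and lines join means of 2. Pkm lies lower in SD at each time, Pfkfb3 is lowest at CT8 in both conditions and Pklr is highest at CT20 in SD.

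The JTK_CYCLE test for a 24 h rhythm called none of the 9 genes in any of the 8 sets of 12 libraries, where it called 0.147% of genes in CON liver, 1.76% in SD liver, 0.158% in CON kidney and 0% in the other 5 sets. At an unadjusted p under 0.05 it passed 2 of the 9 in CON liver, 1 in SD liver, 0 in either kidney set, 0 and 1 in CON and SD forebrain, and 2 in each cerebellum set. The matching shares of all genes are not given, so nothing is read from these counts. With 12 libraries, the smallest p that this rank test can give survives adjustment over all genes only if many genes reach it together. Its lack of calls therefore does not show that a rhythm is absent. A cosine fit with edgeR, run as an alternative, called Pfkl, Pfkp and Pfkfb3 in CON liver (8.79% of genes), Pklr and Pfkfb3 in SD liver (11.8%) and Hk2 in CON kidney (3.93%). The difference in rhythm between SD and CON was called for 0 of the 9 genes and 0% of all genes in each tissue by edgeR (722 to 2248 genes at an unadjusted p under 0.05), with 1 of the 9 at an unadjusted p under 0.05 in forebrain, 1 in cerebellum and 0 in liver and kidney. DESeq2 called 1, Pfkfb3 in cerebellum, among 12 of 22218 genes there. A gene called in one condition and not in the other is therefore not shown to differ between them.

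At single times, SD and CON in liver were called apart for Hk2 at CT8 (log2 difference -1.17), Pkm at CT8 (-0.73) and Pkm at CT24 (-0.75), beside 0.416% of genes at CT8 and 0.238% at CT24. None of the 9 was called at any time in the other 3 tissues. At an unadjusted p under 0.05, up to 5 of the 9 passed in forebrain, at CT20, where 4973 of 23078 genes passed and 2.28% were called. Up to 3 passed in cerebellum, at CT8, beside 5920 of 22218 genes. Up to 3 passed in kidney, at CT4 and CT24, beside 1403 and 2377 of 21528 genes. Of all genes, 0.00433% were called in forebrain at CT16 and 10.3% in cerebellum at CT8, with 0% at the other times there except forebrain CT20. In kidney the share was 0.00465% at CT4 and at CT16, 0.00929% at CT8, 0.0372% at CT12, 0.0139% at CT20 and 0.33% at CT24, and in liver it was 0.0101% at CT4 and 0% at CT12, CT16 and CT20.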

How the data were processed

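RNA was read from 96 libraries, 24 per tissue. Per the study's methods, the authors trimmed reads with Trim Galore, aligned them to GRCm38 with HISAT2, filtered them on mapping quality with SAMtools and counted them per gene with featureCounts. The deposited values are raw read counts, not normalized, and reads that overlap more than 1 gene on the same strand are left out by the counter's default, which lowers overlapping and duplicated genes. Versions are not repeated here.

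CPM was computed as a count over the library's total. Each tissue was fitted alone with edgeR 4.0.16 in R 4.3.3 (filterByExpr over its 12 groups, TMM factors, quasi-likelihood F-test, Benjamini-Hochberg over all tested genes, threshold 0.05), with condition and time as terms for the averaged comparison, condition within each time for single times, and cosine and sine terms of 24 h by condition for the rhythm difference. Tissues were compared in 1 fit of the 48 CON libraries. The SE of a log2 difference is its size over the square root of F. JTK_CYCLE was run on CPM in Python 3.11.15. Shares used CPM over the length of all exons of a gene in GENCODE M21. Scripts were tested on simulated data. Alternatives were library sizes, no filter, DESeq2 1.42.0, the replicate number as a block, an edgeR cosine fit and leaving out single libraries.

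The 9 genes and the gene lists were chosen with earlier results of these data known. All 9 are named, with at most 3 pathway genes per direction and tissue by size of change among those called, the isozyme partners, and the 5 protein-coding genes closest to Pkm and to Pklr in liver by Pearson's r of log2 CPM (prior count 2). In the kidney comparison, log2 values took a pseudocount of 0.1 CPM. Standard errors cover these libraries only. Some genes that this rule would name are not reported here. Promoter windows came from RefSeq, and no protein sequence was used.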

Additional observations from a re-analysis of the deposited data

How the results depend on the processing

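The 5 liver genes and kidney Hk3 kept their direction and their call with library sizes, with no filter on low counts, with DESeq2, with the replicate block and in each of 24 fits that left out 1 library. These fits reuse the libraries whose values were known when the 9 genes were chosen. They show how far a value depends on the processing and give no independent support for it. Averaged over time, liver had 5 of the 9 called in the main fit and 5 to 6 when a library was left out. The sixth was Ldha, at a log2 difference of 0.21 with no filter, 0.25 without CON CT8 replicate 1 and 0.24 without SD CT16 replicate 1. Kidney had 1 to 1, forebrain and cerebellum 0 to 0. Tissue contrasts in CON, run without each of 8 libraries, gave 8 to 8, 9 to 9 and 8 to 8. Pathway genes called in liver numbered 7 to 10, and 0 to 0 elsewhere. Pdk2 (0.10) lost its call with library sizes and in 10 of 24 fits that left out a library, and Pdha1 (0.10) lost its call with library sizes. With no filter, 1 pathway gene, Pdk4, was called in kidney.

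Calls at single times rest on 2 libraries against 2 and were the least stable. Liver had 3 in the main fit, 10 with DESeq2, 5 with library sizes, 22 with no filter, 3 with the block and 0 to 5 without a library. Over all genes tested in liver, calls at a single time ran from 0 to 82 in the main fit, 28 to 472 with DESeq2, 0 to 309 with library sizes, 330 to 1102 with no filter and 0 to 114 with the block. Kidney had 0, and 12 with no filter, where 487 to 1044 of all genes were called against 1 to 71 with the filter. Of all genes, DESeq2 called 1700 of 23078 in forebrain at CT20 and 3090 of 22218 in cerebellum at CT8. Forebrain had 0, 1 with DESeq2 (Hk1 at CT20) and 0 to 1 without a library. Cerebellum had 0, 1 with DESeq2 (Hk3 at CT8) and 0 to 7 without a library, the 7 coming without CON CT8 replicate 2, when the library that stands apart is alone in its group. The rhythm difference was called for 0 to 0 of the 9 without a library, for 1 in cerebellum with DESeq2 (Pfkfb3) and for 1 in liver with no filter (Pklr), where 409 genes were called against 0 with the filter. The cosine fit called 3 in CON liver, 2 in SD liver and 1 in CON kidney, where JTK_CYCLE called 0 (0 to 0 without a library). The cause of these changes was not tested.

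The replicate numbers gave no clear pairing of CON with SD libraries within a tissue. Whether libraries of different tissues came from the same mouse was not checked, and the main fit between tissues treated all libraries as independent. Deviations of same-numbered libraries correlated between -0.38 and 0.20 in cerebellum, -0.29 and 0.49 in forebrain, -0.04 and 0.37 in kidney and -0.18 and 0.19 in liver, with 3, 3, 4 and 3 of 6 pairs over 0.1. The block changed no count of calls among the 9 genes. No paired analysis was possible for JTK_CYCLE because it takes no block.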
